A study of Macaca mulatta with 26 samples.

Results

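Widely shared back-splice junctions of skeletal muscle were taken as the junctions with 2 or more reads in 12 or more of 24 muscle libraries, after reads were summed over all exon structures that use the same junction. By this rule 258 junctions were members, or 3.32% of the 7764 junctions with 2 or more reads over the 24 libraries, and the other 7506 junctions served as the comparison. The libraries came from vastus lateralis, a thigh muscle, of rhesus monkeys, with 1 library per monkey. There were 6 Young monkeys aged 0.003 to 6 years, 3 of them under 1 year, 11 Middle Age monkeys aged 11.3 to 16.93 years and 7 Old monkeys aged 25.7 to 40.9 years. All animals ate a normal diet and came from a long-running study of diet and aging, and the labels name no treatment. Every RNA sample of every group was digested with RNase R, an exonuclease that removes linear RNA and spares circles. In addition, 2 libraries were sequenced in depth, at about 100000000 reads against about 20000000, and carry the ages 0.005 and 40.1 years, each of which 1 of the 24 libraries also has.

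A circular RNA forms when a splice donor is joined backward to an acceptor upstream of it, so that 1 or more exons close into a ring, and the read that crosses this joint is the only read that counts the circle. Circles without a free end resist exonucleases and are long lived, and long introns on both sides of the circularized exons are known to favour back-splicing. Intronic circles arise differently: the lariat left by splicing escapes debranching, and the ring runs from the 5′ end of the intron to the branch point a short way before its 3′ end.

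The members were chosen by their read numbers in these 24 libraries, so their abundance is given only as a description. Member totals over the 24 libraries ran from 32 to 1128 reads with a median of 87.5, against a median of 3 reads for the other junctions. The members held 37524 of 99083 junction reads, or 37.9%. The number of libraries with 2 or more reads had a median of 16 among members. It reached 18 or more in 91 of them and 24 in 8. At the lower edge, 45 members had exactly 12 such libraries and totals of 32 to 407 reads (median 50), and 58 junctions with 11 such libraries, which are not members, had totals of 32 to 187 reads (median 50.5). The edge of the class therefore separated junctions with overlapping read totals, as the plot of junctions by number of libraries shows.

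**Figure D1:**
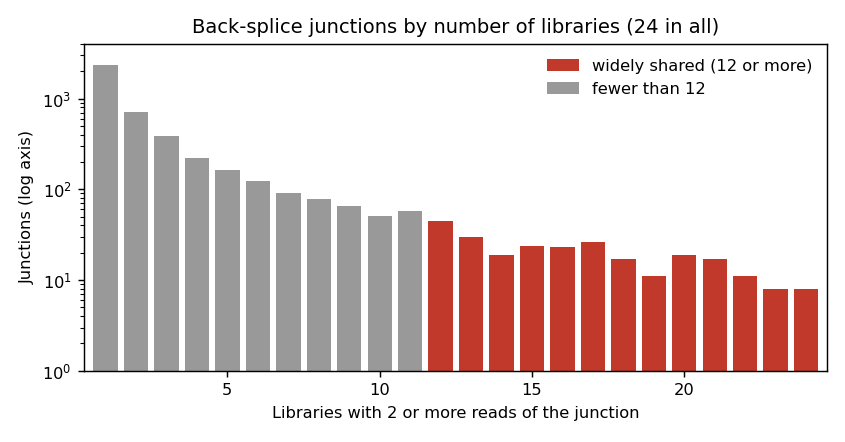
Number of back-splice junctions (log axis) against the number of libraries, of 24, with 2 or more reads of the junction. Red bars are the 258 members; the count falls from 2321 junctions with 1 such library to 58 with 11 and 45 with 12, with no gap at the edge, and 8 junctions reach all 24.

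The members with the most reads just inside the edge were mmu_circ_019218 (407 reads in 12 libraries), mmu_circ_005566 (77 reads) and mmu_circ_015918 (75 reads). Just outside stood mmu_circ_004742, with 187 reads in 11 libraries, an intronic junction without a study number at chr20:638721-638934 with 92 reads, and mmu_circ_015038 with 88 reads. The junction with the most reads that was not a member was mmu_circ_010916 at chr2:185463752-185472097, a circle of 2 exons and 405 nt with 544 reads, all in 10 libraries, where the highest held 117 reads. It was listed in neither in-depth library. The next were mmu_circ_004957, with 198 reads in 8 libraries, and mmu_circ_004742.

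The number of members that a library showed went with its depth. The 24 libraries held 822 to 11561 junction reads (median 3924), and 93 to 251 of the 258 members had at least 1 read (median 209.5). In expectation at 822 reads, the depth of the smallest library, the range was 93 to 145 members with a median of 135. The 93 is the smallest library itself, as sequenced, and the next lowest value was 120. That library thus showed fewer members than the others would at the same depth. A junction with fewer than 3 reads lies below 0.0259% of reads in the deepest library and below 0.365% in the shallowest, which limits what a value of 0 can show. The share of junction reads held by members, in contrast, ran from 33.0% to 45.4%. It was 37.6% ± 4.23 (SD, n = 6) in Young, 40.5% ± 2.37 (SD, n = 11) in Middle Age and 36.2% ± 2.43 (SD, n = 7) in Old libraries. These ranges overlapped between groups, with 33.8% to 45.4% in Young, 37.0% to 44.0% in Middle Age and 33.0% to 38.6% in Old, and no test was made, since the same reads chose the members.

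**Figure D2:**
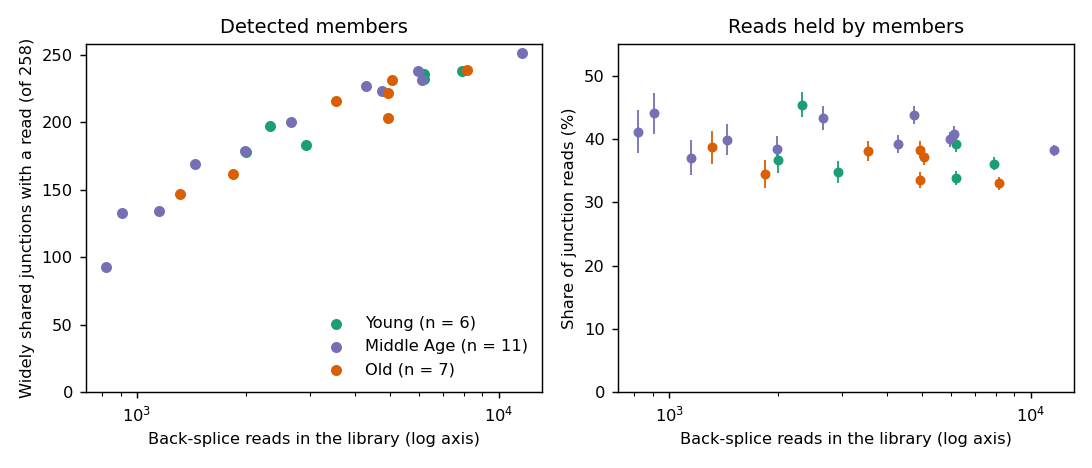
Left, members with at least 1 read, and right, percent of junction reads held by members with 95% Wilson intervals (counting error only), each against the back-splice reads of the library on a log axis; 1 point is 1 monkey, coloured by age group. Detected members climb from 93 to 251 with depth, whereas the share of reads stays between 33.0% and 45.4%.

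The most abundant member was mmu_circ_010973 at chr2:189036369-189048246 on the plus strand, a circle of 3 exons and 247 nt. It had 9, 41 and 150 reads in the lowest, median and highest library. Scaled to 1000 junction reads of the library, its level was 7.04 at the lowest, 10.99 at the median and 18.1 at the highest. The group means were 11.4 in Young, 10.2 in Middle Age and 12.0 in Old, and it was present in all libraries, in-depth ones included (623 and 257 reads). Its coefficient of variation over the 24 libraries, the SD divided by the mean, was 0.249, the lowest of all members, where counting error alone would give 0.191.

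The other members with 2 or more reads in all 24 libraries were also exonic. On chromosome 18, mmu_circ_009828 (chr18:72438949-72465599, 3 exons, 220 nt) had 7 to 121 reads with a median of 32.5. On the same chromosome, mmu_circ_009432 (chr18:14771495-14785401, 5 exons, 679 nt) had 4 to 128 reads with a median of 25. These 2 junctions lie far apart on the chromosome and belong to different host loci. On chromosome 6, mmu_circ_015464 (chr6:134290743-134290950), a single exon of 208 nt, had 3 to 117 reads with a median of 30. Its neighbour mmu_circ_015458 (chr6:134285266-134289462), with 3 exons and 285 nt, had 4 to 99 reads with a median of 18. Together these neighbours held 98.8% of the reads of their host locus. The remaining members of this kind were mmu_circ_018901 (chr9:138316-178337, 3 exons), mmu_circ_011903 (chr20:45697009-45715127, 5 exons) and mmu_circ_009737 (chr18:52215733-52236337, 4 exons), each with a lowest value of 2 reads and highest values of 64, 41 and 26 reads. The coefficients of variation of mmu_circ_018901 and mmu_circ_011903, 0.384 and 0.386, were the lowest after that of mmu_circ_010973.

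High abundance did not bring a read in every library. The second most abundant member, mmu_circ_016141 (chr6:73699671-73701378, 2 exons, 181 nt), had a median of 39.5 reads and a highest value of 122, yet no read in 1 library. The third, mmu_circ_019349 (chr9:64242316-64243110, 2 exons, 172 nt), had a median of 36.5 and a highest value of 147 reads and was listed in 19 libraries. Further exonic members of this rank were mmu_circ_011853 (chr20:29319558-29319983, 2 exons) with 0 to 77 reads, mmu_circ_015243 (chr6:119937864-119949709, 3 exons) with 0 to 46 and mmu_circ_016162 (chr6:75664580-75683702, 4 exons) with 0 to 55. Next to them stood mmu_circ_018406 (chr8:54406860-54407261), a single exon of 402 nt with 0 to 55 reads, and mmu_circ_008966 (chr17:20763128-20771180, 3 exons) with 0 to 67. In the 20 members with the highest means the levels ran from 3.69 to 11.03 reads per 1000 junction reads, and 13 of these 20 lacked a read in at least 1 library.

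**Figure D3:**
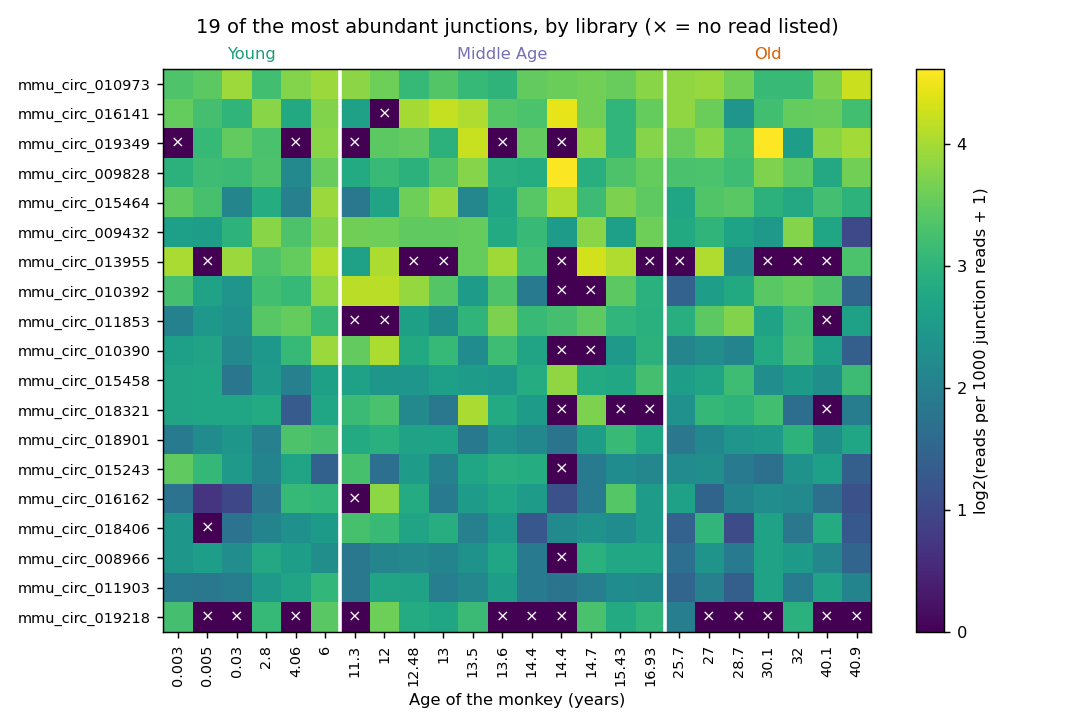
Of the 20 members with the highest mean level, 19 (rows) in the 24 libraries (columns, ordered by age group and age in years); colour is log2(reads per 1000 junction reads + 1) and a cross marks a library with no read of the junction. Crosses sit beside high values, as in mmu_circ_019218 and the intronic mmu_circ_013955, while 7 of the 8 junctions of all 24 libraries are among these rows and have no cross.

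Over all members, 1430 of 6192 values (23.1%) were 0. Most of these fell where few reads were expected from the member's mean level and the depth of the library. In 917 values 10 or more reads were expected, and 54 of these (5.89%) were nevertheless 0, whereas 9 had 1 or 2 reads. These 54 values came from 30 members and 17 libraries, with at most 7 in 1 library. Exonic members gave 42 of 813 such values (5.17%) and intronic members 12 of 104 (11.5%). The 42 came from 25 exonic members and the 12 from 5 intronic ones. Most of the 12 belonged to mmu_circ_013955 alone, so the higher intronic share does not describe the type. Whether a value of 0 means no read of the junction or a junction that was not called cannot be told apart in these values.

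The clearest case was mmu_circ_013955 (chr4:43067753-43067936, plus strand), an intronic circle of 184 nt. It had 112 reads in the library aged 0.03 years and 89 in the library aged 14.7 years, but 0 in 9 libraries. One of these was the deepest library, aged 16.93 years, where its mean level gave 87.7 expected reads. It had 0 reads in both libraries labelled 0.005 years, where 461 reads were expected in the in-depth one. Of the libraries labelled 40.1 years, that among the 24 held 0 and the in-depth one 251 reads. A similar pattern was seen for mmu_circ_019218 (chr9:50420096-50435842, 4 exons, 406 nt), which ranged from 10 to 84 reads in the 12 libraries that listed it and was 0 in the other 12, and had 298 and 109 reads in the in-depth libraries, whereas the libraries of the same labelled ages among the 24 held 0.

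In some libraries several junctions of 1 host were 0. Among the 54 values, 19 belonged to loci with 2 or more members. In 5 of these all other members of the locus were 0 as well. Over all members 23.1% of values were 0, and whether values of 0 were shared within a host more often than that was not tested. In the library aged 16.93 years, mmu_circ_018321 and mmu_circ_018323, 2 circles of chromosome 8 that share a genomic start, were both 0. There 59.2 and 19.1 reads were expected, and each of the 2 counts among the 5. In the library aged 14.7 years the most abundant members of the chromosome 2 locus described next, mmu_circ_010392 and mmu_circ_010390, were both 0 where 35.9 and 27.8 reads were expected. The host was still detected there, with 3 of the 6 members of the locus at 0 and 31 reads over the 6.

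Whether the in-depth libraries came from monkeys among the 24 is not settled by the sources used here, and only the labelled ages match, so they are not treated as independent animals. Of the 258 members, 252 were listed in the Young in-depth library (60704 junction reads) and 255 in the Old in-depth library (35205 junction reads), or 97.7% and 98.8%. For the other junctions the shares were 58.8% and 48.6%. For the 219 other junctions that had at least 32 reads over the 24 libraries, the lowest total of a member, both were 89.95%. None of the members was absent from both. Of 26 members at 0 in the library aged 0.005 years among the 24, 24 were listed in the in-depth library of that age, and for 40.1 years 41 of 42 were. The members not listed in the Young in-depth library included mmu_circ_007062 and mmu_circ_007064, which share a start at chr15:105230912. The member with the most reads that was not listed in the Old in-depth library was mmu_circ_006028, where 70.3 reads were expected. The member share of junction reads was 28.3% and 32.7% in depth, against 33.8% and 38.1% in the libraries of the same ages among the 24.

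Members and other junctions were then compared by structure, which the rule did not use. Read totals differ strongly between these sets, so the 219 other junctions with 32 or more reads, called read-rich others from here on, are given beside them. Their median total, 40 reads, still lay below the 87.5 reads of the members. The values describe the sets, and no test was made between them. By type, 15 of 258 members were intronic (5.81%, 95% Wilson interval 3.55 to 9.37%), against 354 of the other junctions (4.72%, 4.26 to 5.22%) and 3.65% (1.86 to 7.04%) of the read-rich others. These intervals overlap.

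Exonic members, 243 in all, had a median of 3 exons, as did both other sets. A single exon formed 22 of these circles (9.05%, interval 6.05 to 13.3%), against 6.19% (5.66 to 6.78%) of other and 6.64% (3.99 to 10.8%) of read-rich other junctions. Their single exons had a median length of 561.5 nt, against 282 nt and 386 nt. Circles of 8 or more exons made up 3.70% (1.96 to 6.89%) of exonic members, 7.54% (6.95 to 8.17%) of the other junctions and 1.42% (0.485 to 4.10%) of the read-rich others. The interval of the members lay below that of all other junctions and overlapped that of the read-rich ones.

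Spliced length, the summed length of the exons or intron in the circle, had a median of 363.5 nt in members, 390 nt in other junctions and 318 nt in read-rich others. The quartiles of the members were 259 and 561 nt, and 91.5% of members, against 90.5% of others, were under 1000 nt. Genomic span, the distance between the ends of the junction, had medians of 4384.5, 5460.5 and 5776 nt. The member with the most exons was mmu_circ_004932 (chr12:86464618-86507773), with 14 exons and 1503 nt. The longest was mmu_circ_010992 (chr2:20044064-20046839), a single exon of 2776 nt with 0 to 23 reads a library. The shortest, in length and in span, was the intronic mmu_circ_006322 of 99 nt (chr14:1750829-1750927). The widest, at chr9:86772442-86929078, spanned 156637 nt and joined 5 exons of 457 nt.

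The introns that flank the circle were longer at the median in members than in all others. The mean of the upstream and downstream flanking intron had a median of 12693 nt in exonic members and 7072 nt in other exonic junctions. In read-rich others it was 12604 nt, close to the members. Upstream introns alone had medians of 10565 and 6174.5 nt, and downstream introns 11036.5 and 5735 nt. Long flanks thus went with read-rich junctions whether or not they were spread over 12 libraries, as the cumulative plots show.

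**Figure D4:**
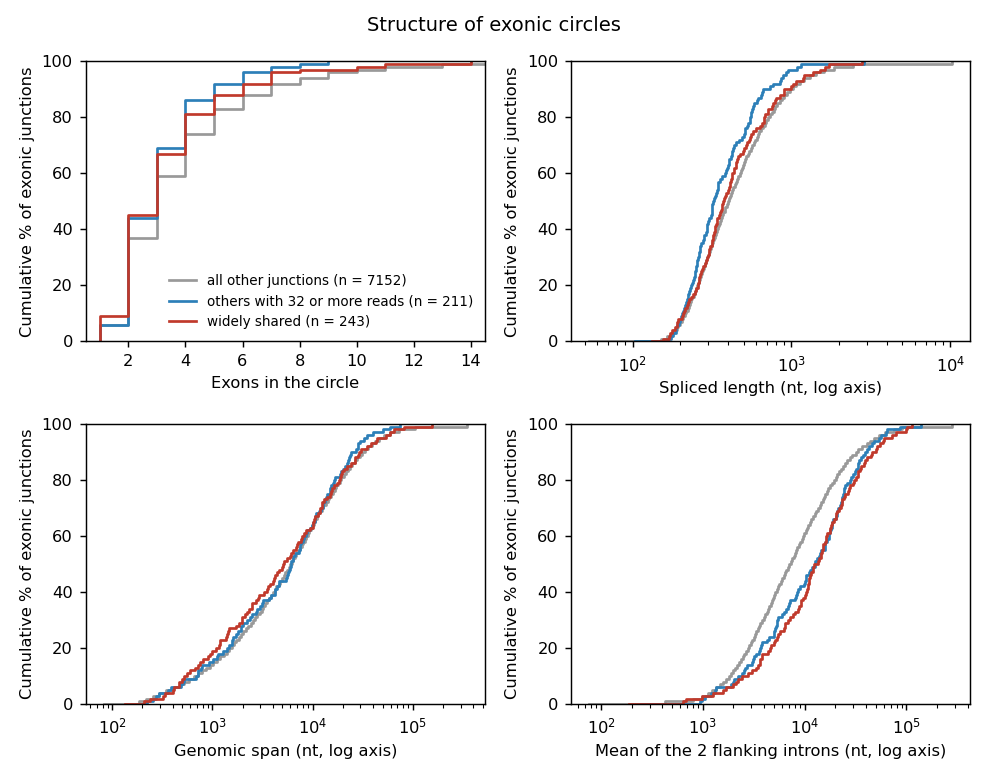
Cumulative percent of exonic junctions by exon number, spliced length, genomic span and mean flanking intron length (nt, log axes for the last 3), for 243 members (red), 211 other junctions with 32 or more reads (blue) and all 7152 other junctions (grey). The flanking intron curves of members and read-rich others run together, with medians of 12693 and 12604 nt, to the right of all others at 7072 nt.

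Circles of the same host were counted on the transcript that carried most reads of a junction. Members had a median of 2 other circles on that transcript, other junctions 1 and read-rich others 1. At totals of 32 to 99 reads the median was 1 for members and 1 for others. At 100 or more reads it was 2 for 112 members and 0 for only 7 others. Names of predicted transcripts were given anew in each library, and 300 of 12147 such names occurred on 2 or more chromosomes. Junctions were therefore also joined into loci through any transcript that they shared within a library. By locus, members had a median of 3 other circles, others 1 and read-rich others 3. No other circle at the locus was found for 17.1% (interval 13.0 to 22.1%) of members, 38.6% (37.5 to 39.7%) of others and 19.6% (14.9 to 25.4%) of read-rich others. The members came from 220 loci. Of the 214 members with another junction at their locus, 174 had the most reads there, a count that rests on the read numbers used to choose them.

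Splice sites were often reused. The acceptor, where the circle starts in transcript direction, was shared with another junction in 53.5% (47.2 to 59.7%) of exonic members, 35.3% (34.2 to 36.5%) of others and 44.1% (37.5 to 50.8%) of read-rich others. The donor was shared in 44.0% (37.9 to 50.3%), 30.1% (29.1 to 31.2%) and 44.1% (37.5 to 50.8%). Either site was shared in 68.7% of members and 68.7% of read-rich others, and in 53.3% of all others.

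In 30 loci there were 2 or more members, 68 members in all. The richest was chr2:102990361-103021852 on the minus strand, where 6 members combined 3 start and 2 end positions of the genome. All 6 combinations were members, and together they held 1901 of 1947 reads (97.6%) of 11 junctions at the locus. The largest circles led: mmu_circ_010392 joined 6 exons and 1726 nt and had 677 reads, and mmu_circ_010390 joined 5 exons and 1663 nt and had 523. Then came mmu_circ_010405 (2 exons, 286 reads) and mmu_circ_010404 (a single exon of 981 nt, 245 reads). The pair that starts at the middle of these positions had fewest, mmu_circ_010395 with 113 and mmu_circ_010397 with 57 reads. Summed over the 6, a library held 4 to 225 reads.

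At 2 loci of chromosome 18 and 1 of chromosome 8 the members fanned out from 1 start. At chr18:72438949-72524151, mmu_circ_009828 ends after 3 exons and had 873 reads. The next 2, mmu_circ_009830 after 4 exons and mmu_circ_009844 after 7 exons, had 197 and 215 reads, and a circle of 5 exons without a study number had 34. At chr18:14771495-14826320, mmu_circ_009432 with 5 exons had 829 reads, mmu_circ_009443 with 11 exons 231 and mmu_circ_009425 with 2 exons 58. The locus chr8:125666461-125704810 had no such leader, with 76, 54 and 68 reads for circles of 5, 9 and 12 exons.

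The 15 intronic members had a common geometry. All began exactly at the 5′ end of their intron. No such count is given here for the other intronic junctions. Whether the calling of intronic circles itself requires this start was not checked here, so it is not called particular to members. In 14 the circle ended 18 to 40 nt before the 3′ end of the intron, a window chosen after the values were seen, with a median distance of 24 nt. The exception, mmu_circ_017202 (chr7:41446344-41447117), covered its whole intron of 774 nt. Among other intronic junctions 270 of 354 (76.3%, interval 71.6 to 80.4%) lay in that window, against 93.3% (70.2 to 98.8%) of members and 87.5% (52.9 to 97.8%) of the 8 read-rich others of this type. Their introns were short, with a median of 194 nt in members and 263.5 nt in others.

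After mmu_circ_013955, the most abundant intronic members were 2 pairs whose junctions differ by 1 nt at the 3′ side. On chromosome 15, mmu_circ_007427 (chr15:41837368-41837519, 152 nt) had 0, 8 and 52 reads in the lowest, median and highest library, and mmu_circ_007426 (151 nt) had 0, 6 and 51. On chromosome 1, mmu_circ_001451 (chr1:24464241-24464383, 143 nt) had 0, 10 and 29 reads, and mmu_circ_001450 (144 nt) 0, 7.5 and 31. Such pairs are counted as 2 members here. Another abundant intronic member, mmu_circ_006990 (chr14:9702546-9702752, 207 nt), is described with the age groups.

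Over the libraries, 1 per monkey, the coefficient of variation of the level had a median of 0.885 in members. Counting error alone would give 0.671. The ratio of these 2 values had a median of 1.32, with 1.30 for exonic and 2.30 for intronic members. The highest coefficients belonged to 3 intronic circles of chromosome 16, mmu_circ_008716 (2.05), mmu_circ_007947 (1.71) and mmu_circ_008726 (1.64). Their highest library had 9, 12 and 12 reads and their median library 2, 2.5 and 1.5, so few reads stood behind each value.

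Host genes could be named for few members. RERE, a transcriptional corepressor and a common circRNA host, gave mmu_circ_000204 (3 exons), with 70 reads over the 24 libraries. No named member belonged to the lists for excitation and calcium handling, myogenic and RNA-binding factors or energy metabolism. Other named hosts were XRN2, a nuclear exoribonuclease, USP33, a deubiquitinase, UBAP2L, a stress granule protein, SCMH1, a Polycomb protein, COG2 of the Golgi, DENND1B, a Rab exchange factor, and RFWD2, a ubiquitin ligase, with 49 to 149 reads each. With 247 members unnamed, these counts say nothing about the lists as a whole. The values hold no linear transcripts, so markers of muscle could not be checked.

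Finally the age groups were compared, junction by junction, with edgeR's quasi-likelihood test over 1496 junctions with 2 or more reads in 3 or more libraries, which held all 258 members, and with Benjamini-Hochberg adjustment over all of them. Log2 fold changes are of reads relative to the junction reads of the library. In whole muscle, fewer cells of a type and less RNA per cell cannot be told apart.

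Between Old and Young, no member was called (0.0% of the 1496 junctions tested were called in either direction). At an unadjusted p below 0.05 there were 10 members, or 3.88%, beside 10.2% of all junctions tested, and DESeq2 and limma-voom called no member either. The median log2 fold change of members was -0.04, with quartiles of -0.49 and 0.39, and the median of all tested was 0.00. The SE is the absolute log2 fold change divided by the square root of the test's F statistic, an approximation unreliable for very small changes. It had a median of 0.77 per member. In simulated counts, 0 of 100 members changed by a log2 fold of 1 were found in this comparison. At 2 it was 3 of 100 and at 3 it was 60 of 100. The simulation gave every junction the common dispersion of 0.757, not the spread of its own values. Under that setting changes below 8-fold would mostly be missed, which is no measured limit for the members themselves. The smallest adjusted p among members, by edgeR, was 0.157, for mmu_circ_008860, and those of mmu_circ_007854 and mmu_circ_003234 were 0.198 and 0.232.

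Between Middle Age and Young, 1 member was called higher, beside 0.201% of all junctions tested, and none lower, beside 0.334% (0.535% in either direction). At an unadjusted p below 0.05 there were 15 members (5.81%), beside 13.0% of all junctions tested. The called member was mmu_circ_008860 (chr17:11887392-11897424, minus strand, 4 exons, 438 nt). The Young libraries had 0, 0 and 7 reads at the lowest, median and highest, and 4 of 6 were 0. In Middle Age they were 0, 5 and 35 with 3 of 11 at 0, and in Old 0, 6 and 25 with 2 of 7 at 0. The groups thus overlapped at 0, while the highest Young level was 1.00 reads per 1000 junction reads and 8 of 11 Middle Age libraries lay above it. The log2 fold change was 2.77 ± 0.73 (SE; edgeR adjusted p = 0.046). With the 3 monkeys under 1 year left out it was 3.12 with an adjusted p of 0.318 by edgeR, and DESeq2 gave 2.63 with an adjusted p of 1.00. The median log2 fold change over members was 0.04, beside 0.00 over all junctions tested.

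Between Old and Middle Age, 2 members were called lower, beside 0.334% of all junctions tested, and none higher, beside 0.602% (0.936% in either direction). At an unadjusted p below 0.05 there were 14 members (5.43%), beside 10.5% of all junctions tested. The first, mmu_circ_003234 (chr11:12601546-12601939, minus strand), is a single exon of 394 nt. It had 0 to 5 reads in Young (median 2.5), 0 to 12 in Middle Age (median 2) and 0 to 1 in Old libraries (median 0), where 5 of 7 were 0 and the sum over the group was 2 reads. Its log2 fold change was -3.66 ± 0.93 (SE; edgeR adjusted p = 0.032). Since 2 reads make up the Old group, the size of this change depends on the prior count of the fit.

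The second, the intronic mmu_circ_006990, had 1 to 33 reads in Young (median 2.5), 1 to 42 in Middle Age (median 10) and 0 to 10 in Old libraries (median 3). Its level was 4.51 ± 4.52 reads per 1000 junction reads (SD, n = 11) in Middle Age and 0.945 ± 1.01 (SD, n = 7) in Old, and the ranges overlapped. The log2 fold change was -2.15 ± 0.61 (SE; edgeR adjusted p = 0.049). The call was lost in 17 of 24 fits that each left out 1 library, with an adjusted p of at most 0.161 by edgeR. The highest value, 17.03 reads per 1000, came from the smallest library, and without it the adjusted p was 0.136.

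**Figure D5:**
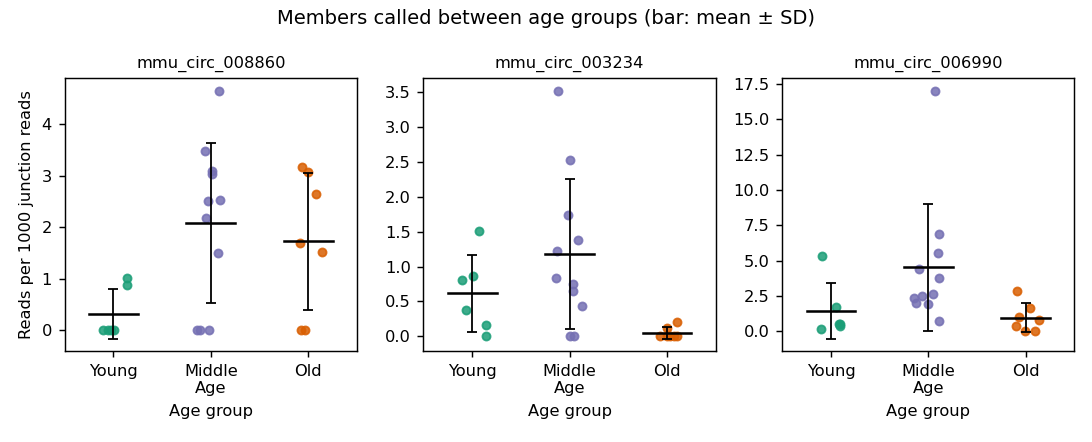
Reads per 1000 junction reads of the 3 members called between age groups, with 1 point per monkey and bars for mean ± SD (6 Young, 11 Middle Age, 7 Old). The groups overlap in all 3; mmu_circ_003234 is 0 in 5 of 7 Old libraries, and 1 Middle Age library at 17.03 leads mmu_circ_006990.

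None of these calls held under every setting. With TMM factors, equal library sizes, DESeq2, no filter on low counts or exon structures kept apart, no member was called in any of the 3 comparisons. Over all 258 members, the median log2 fold change between Old and Middle Age was -0.14, beside 0.01 for all junctions tested. For the 15 intronic members the medians were 0.79 between Middle Age and Young, -0.75 between Old and Middle Age and 0.22 between Old and Young, and for the 243 exonic members 0.01, -0.12 and -0.04. The intronic members' share of member reads was 9.75% ± 5.10 (SD, n = 11) in Middle Age libraries, 7.34% ± 2.32 (n = 6) in Young and 6.81% ± 2.52 (n = 7) in Old. The highest share, 22.5%, was that of the smallest library, with 822 junction reads, and its part in these medians was not tested.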

How the data were processed

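One library per monkey, made from RNase R digested RNA of vastus lateralis without poly(A) selection, was sequenced paired-end. Per the labels the authors used cutadapt, TopHat2 2.0.14, Bowtie2 2.2.4 and Cufflinks 2.2.1, and per their methods called circles on rheMac2 with CIRCexplorer. The deposited values are whole-number counts of back-splice reads per circle and library, without normalization. A circle not listed for a library was set to 0 there. Reads were summed per junction, and the most-read structure, transcript and flanking introns were used. Coordinates count from 1. Circle numbers are those of the study. Library size was the total of junction reads (822 to 11561). Intervals are 95% Wilson intervals and, like the floor of 3 reads, cover counting error only. Age comparisons used the quasi-likelihood test of edgeR 4.0.16, run under R 4.3.3 (3 groups in 1 fit, no covariates, adjusted p below 0.05; common dispersion 0.757), with DESeq2 1.42.0 and limma 3.58.1 as alternatives, and the fit was tested on simulated counts. Tables were made with Python 3.11.15, numpy 2.4.6, pandas 2.3.3, scipy 1.17.1, networkx 3.6.1 and matplotlib 3.10.9. P-values measure the spread between libraries, 1 per monkey, in which animal and library preparation cannot be told apart. Members and gene lists were chosen with earlier results of these data known. Named junctions are the 20 most abundant members, the 5 most abundant intronic ones, those in all 24 libraries, called members or the 3 with smallest p, junctions at the edge of the rule, members of the 5 richest loci, extremes of size and variation, and members of listed genes. Others were named after their values were seen. Sequences were not used here, and linear transcripts were not analysed here. Some named junctions and hosts are not reported here.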

Additional observations from a re-analysis of the deposited data

Results flagged for a closer look

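In the 6 Young and the 7 Old libraries, 58 sets of values were searched for a library that stood apart by Dixon's criterion. These were the member share, the number of members detected and the levels of 27 named junctions, each in Young and in Old. The search found 3 values. Chance gives about 1 in 20 sets, which over 58 sets is about as many.

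In Young, mmu_circ_006990 had 5.30 reads per 1000 junction reads in the library aged 2.8 years, against 0.161 to 1.72 in the other 5. The same group had 14.2 reads per 1000 of mmu_circ_010390 in the library aged 6 years, where the next value was 7.52. For mmu_circ_018321 the library aged 4.06 years was low, at 1.503 reads per 1000, and the next value was 5.46. The libraries aged 4.06 and 6 years were the smallest of the group, with 1996 and 2331 junction reads.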

How the results depend on the processing

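Of 53 values of the rule and of the structure under other settings, 35 stayed near the reported value, taken as within 1.5 times for the number of members, within its Wilson interval for the intronic share and otherwise within 1 SD over libraries. The number of members was 160 at 3 or more reads in 12 libraries, 510 at 2 or more reads in 8 libraries and 91 in 18 libraries, and their share of reads was 32.2%, 48.9% and 24.3%. With exon structures kept apart the share was 33.4%, the median exon number 2, length 341.5 nt and span 3355 nt. Without the 6 smallest libraries, at 2 or more reads in 9 of 18, there were 384 members with a share of 43.8%. The median span was 3989 nt at 3 or more reads and 4811 nt in 18 libraries, and the median length 344 nt in 8 libraries. The median number of other circles on the host was 3 with circles of 1 or more reads and 0 with those of 10 or more. By locus and within a library, both added after seeing the data, it was 3 and 0.742. Within a library the median was 0.5 for other junctions and 0.846 for read-rich others, above that of members. Members detected per library had a median of 135.4 when thinned to the smallest library.

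Between Middle Age and Young, 0 members were called with TMM factors, equal library sizes, 2 or more reads in 6 libraries, no filter, structures apart, DESeq2 or without the monkeys under 1 year, and 2 with 10 or more reads in total, in a fit of only these 2 groups and by limma-voom (added after seeing the data). Between Old and Middle Age, 0 were called with TMM factors, equal library sizes, no filter, structures apart, DESeq2, limma-voom, limma-voom with high zeros as missing (added) or without the 6 smallest libraries, and 1 with 2 or more reads in 6 libraries. Between Old and Young no setting gave a call. With each library left out in turn (added), the calls ranged from 0 to 3, 0 to 4 and 0 to 0. The call of mmu_circ_003234 was lost without Middle Age replicate 1 or 2 or Old replicate 1 or 5 (edgeR adjusted p up to 0.067), and that of mmu_circ_008860 in 12 of 24 such fits (up to 0.139, without Young replicate 1). No log2 fold change of these members changed sign. The cause was not tested. No paired analysis was possible because each of the 24 libraries came from a different monkey.

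Depth, with a median of 87.5 reads per member over 24 libraries, limits the age comparisons. So does the spread between libraries, 1 per monkey, with a common dispersion of 0.757 over the junctions tested. A value of 0 in a shallow library may be a junction below its floor.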
